A study of Rattus norvegicus with 17 samples.

Results

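Antigen presentation and interferon genes were read in rat spinal cord neurons that had or had not been axotomised. The members were the probe sets whose single gene symbol starts with RT1-, the prefix of the rat major histocompatibility complex, or is 1 of 32 listed genes of antigen processing, interferon signalling and interferon-induced products. They came to 76 probe sets of 50 genes, among 31099 probe sets on the array. The RT1 genes were 18 of the 50 and held 31 probe sets. Another 6 probe sets carried several symbols that included an RT1 gene and were left out. A filter on low signal passed 50 member probe sets of 38 genes, and only these were tested.

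The study asked which genes respond to axotomy and which accompany axon regeneration in the central nervous system. Each of the 17 arrays held RNA of 1000 retrogradely labelled neurons, taken by laser capture from unfixed frozen cord cut at 10 µm and amplified in 3 Eberwine rounds. In 7 axotomised rats, neurons that were regenerating an axon and neurons that were not were captured separately, which gave 7 pairs of samples. In 3 other rats the neurons were traced but not axotomised. All groups carried the tracer, and the protocols give 1 way of capture and amplification for all. The title of traced MM15 adds that it is a high yield replicate, which the labels do not explain. Strain, age, the site of axotomy and the graft or other setting of regeneration are not given in the sources used here. The animal names start with MM for 5 of the paired rats and for the 3 traced rats, and with MOON for the other 2 paired rats.

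Class I molecules, a heavy chain held by beta-2-microglobulin, show peptides from inside the cell to cytotoxic T cells, and most adult neurons are known to carry little of them until injury or interferon raises them. The peptides are cut by the proteasome, in which interferon gamma swaps in the subunits Psmb8, Psmb9 and Psmb10, and are moved into the endoplasmic reticulum by Tap1 and Tap2. Class II molecules, made under the control of Ciita and escorted by the invariant chain Cd74, show peptides from outside the cell and in the spinal cord are known from microglia and infiltrating myeloid cells. Type I interferon signals through Ifnar1 to Stat2 and Irf9, and interferon gamma through Ifngr1 to Irf1, and each switches on a set of antiviral genes.

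The factor that holds Stat2 and Irf9 binds the interferon-stimulated response element (ISRE), searched here as GAAANNGAAA. Stat dimers bind the gamma-activated site (GAS), searched as TTCNNNGAA. Both were searched on both strands of RefSeq promoters of rat build GRCr8, from 250 bases before to 50 bases after each gene's start, and 43 of the 50 member genes matched a promoter. The ISRE letters were present in 18 member promoters (41.9%), against 1312 of 33469 promoters (3.92%). The GAS letters were in 8 (18.6%), against 8.87% of all promoters. Promoters of 4 members that hold a match and differed from traced neurons at 1 or more probe sets are printed 5′ to 3′ on the gene's strand with the matches in capitals: an ISRE in B2m (chr3:129549080-129549379, plus strand), a GAS and, on the reverse strand, an ISRE in Psmb8 (chr20:4656982-4657281, minus strand), 2 ISREs in Psmb10 (chr19:50743243-50743542, minus strand) and a GAS in Irf9 (chr15:33065586-33065885, plus strand).
B2m: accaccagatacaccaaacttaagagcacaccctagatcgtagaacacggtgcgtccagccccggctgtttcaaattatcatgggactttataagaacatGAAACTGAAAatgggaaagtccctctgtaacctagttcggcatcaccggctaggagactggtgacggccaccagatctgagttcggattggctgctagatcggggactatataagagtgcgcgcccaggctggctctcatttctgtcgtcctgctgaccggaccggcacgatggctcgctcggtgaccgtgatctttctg
Psmb8: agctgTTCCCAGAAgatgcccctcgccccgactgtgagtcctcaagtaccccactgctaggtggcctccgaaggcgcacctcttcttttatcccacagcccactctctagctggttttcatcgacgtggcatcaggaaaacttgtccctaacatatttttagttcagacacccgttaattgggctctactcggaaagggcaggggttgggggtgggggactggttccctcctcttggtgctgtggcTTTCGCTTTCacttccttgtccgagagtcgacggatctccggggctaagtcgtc
Psmb10: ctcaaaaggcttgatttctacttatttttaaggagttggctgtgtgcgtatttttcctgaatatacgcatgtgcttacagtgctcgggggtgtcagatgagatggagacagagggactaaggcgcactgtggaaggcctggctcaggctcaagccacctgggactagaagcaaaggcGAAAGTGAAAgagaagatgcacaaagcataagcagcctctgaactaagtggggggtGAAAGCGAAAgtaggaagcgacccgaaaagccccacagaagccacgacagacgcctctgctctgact
Irf9: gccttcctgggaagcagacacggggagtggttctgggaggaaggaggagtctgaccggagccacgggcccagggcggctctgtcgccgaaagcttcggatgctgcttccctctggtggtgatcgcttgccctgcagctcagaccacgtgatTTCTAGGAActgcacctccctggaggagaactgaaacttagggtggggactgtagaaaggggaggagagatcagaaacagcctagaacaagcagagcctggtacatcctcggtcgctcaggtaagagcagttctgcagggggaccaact
Among member genes tested at their brightest probe set, the 11 with an ISRE match had a median log2 difference of 0.42 between non-regenerating and traced neurons, and 8 of them were higher. The 22 genes with a promoter but no ISRE match had a median of 0.08, and 12 were higher. The differences ran from -0.58 to 1.03 with a match and from -1.06 to 1.33 without, so the ranges overlapped. Over all tested probe sets 38.8% were higher, with a median of -0.12. Cd74, Psmb9, Ifngr1, RT1-A3 and, at its dimmer probe set only, Stat2 differed from traced neurons by a similar or larger size than the 4 printed genes. These 5 held neither match. The brightest Stat2 probe set differed by -0.27 and -0.15. The 4 printed genes were all higher than in traced neurons at the probe set that differed. Members with a match also lay lower. Bst2, with 2 ISREs and 1 GAS, differed by -0.58 in non-regenerating and -0.78 in regenerating neurons, and RT1-M3-1, with 1 GAS, by -0.64 and -0.78. A match says only that these letters lie in the window.

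Neuronal transcripts were bright on every array. Snap25, a synaptic fusion protein, read 2850.1 to 11153.8, and Nefl, the light neurofilament chain, 1629.0 to 5031.6. Glial transcripts were bright as well, with Gfap of astrocytes between 955.4 and 4201.2. The arrays of non-regenerating MM17 and traced MM15 stood apart, with a median correlation to the other arrays of 0.893 and 0.877, against 0.929 to 0.963 for the rest. These 2 arrays also had the lowest ratio of the 3′ to the 5′ Gapdh control, a measure of how far copies reach towards the 5′ end, at 2.94 and 3.21 on the log2 scale against 4.08 to 6.01. The median signal was 32.8 to 39.0 on the MOON arrays and 45.2 to 76.9 on the MM arrays.

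None of the 50 tested member probe sets passed an adjusted p of 0.05 (limma, Benjamini-Hochberg over 18625 probe sets) in any of the 3 comparisons. Across the whole array 0.043% of probe sets passed between non-regenerating and traced neurons, 0.215% between regenerating and traced neurons, and 0.0161% between regenerating and non-regenerating neurons. The smallest adjusted p of a member was 0.472, 0.0682 and 0.678 in that order. Every difference below is therefore a measured value that did not pass, and the 2 comparisons with traced neurons share the same 3 traced arrays.

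At an unadjusted p under 0.05, 10 members were higher in non-regenerating than in traced neurons and 5 were lower. That was 20% and 10% of those tested, where all probe sets gave 2.68% and 7.61%. Between regenerating and traced neurons 12 members were higher (24%, background 5.98%) and 11 lower (22%, background 17.6%). The members that were higher held Cd74, both B2m probe sets, Psmb8, Psmb9, Psmb10, Ifngr1, Stat2 and Ifi27 in both comparisons. The members that were lower held Ciita, RT1-A3, RT1-CE10, RT1-CE12 and Mx2 in both. Without overlap of the groups, 5 members lay above the traced samples in non-regenerating neurons (background 1.1%) and 0 below (background 1.47%). In regenerating neurons 5 lay above (background 2.35%) and 6 below (background 9.36%). The median member differed from traced neurons by 0.05 in non-regenerating and 0.04 in regenerating neurons, against -0.12 in each case over all tested probe sets. With each array centred on its own median, the medians over all probe sets moved to 0.24 and 0.26. Members at an unadjusted p under 0.05 were then 15 higher and 3 lower in non-regenerating neurons, with backgrounds of 7.73% and 2.96%. In regenerating neurons they were 19 higher and 4 lower, with backgrounds of 20.4% and 7.1%. Centring turned the sign of 10 tested members in each comparison with traced neurons, none of them among those just named at the probe set concerned. With the Gapdh ratio as a covariate, 9 members were higher and 0 lower in non-regenerating neurons (backgrounds 1.93% and 2.98%), and 9 higher and 2 lower in regenerating neurons (backgrounds 2.23% and 2.58%). The lower members were thus fewer under both settings, and the part of RNA quality in them was not tested.

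**Figure D1:**
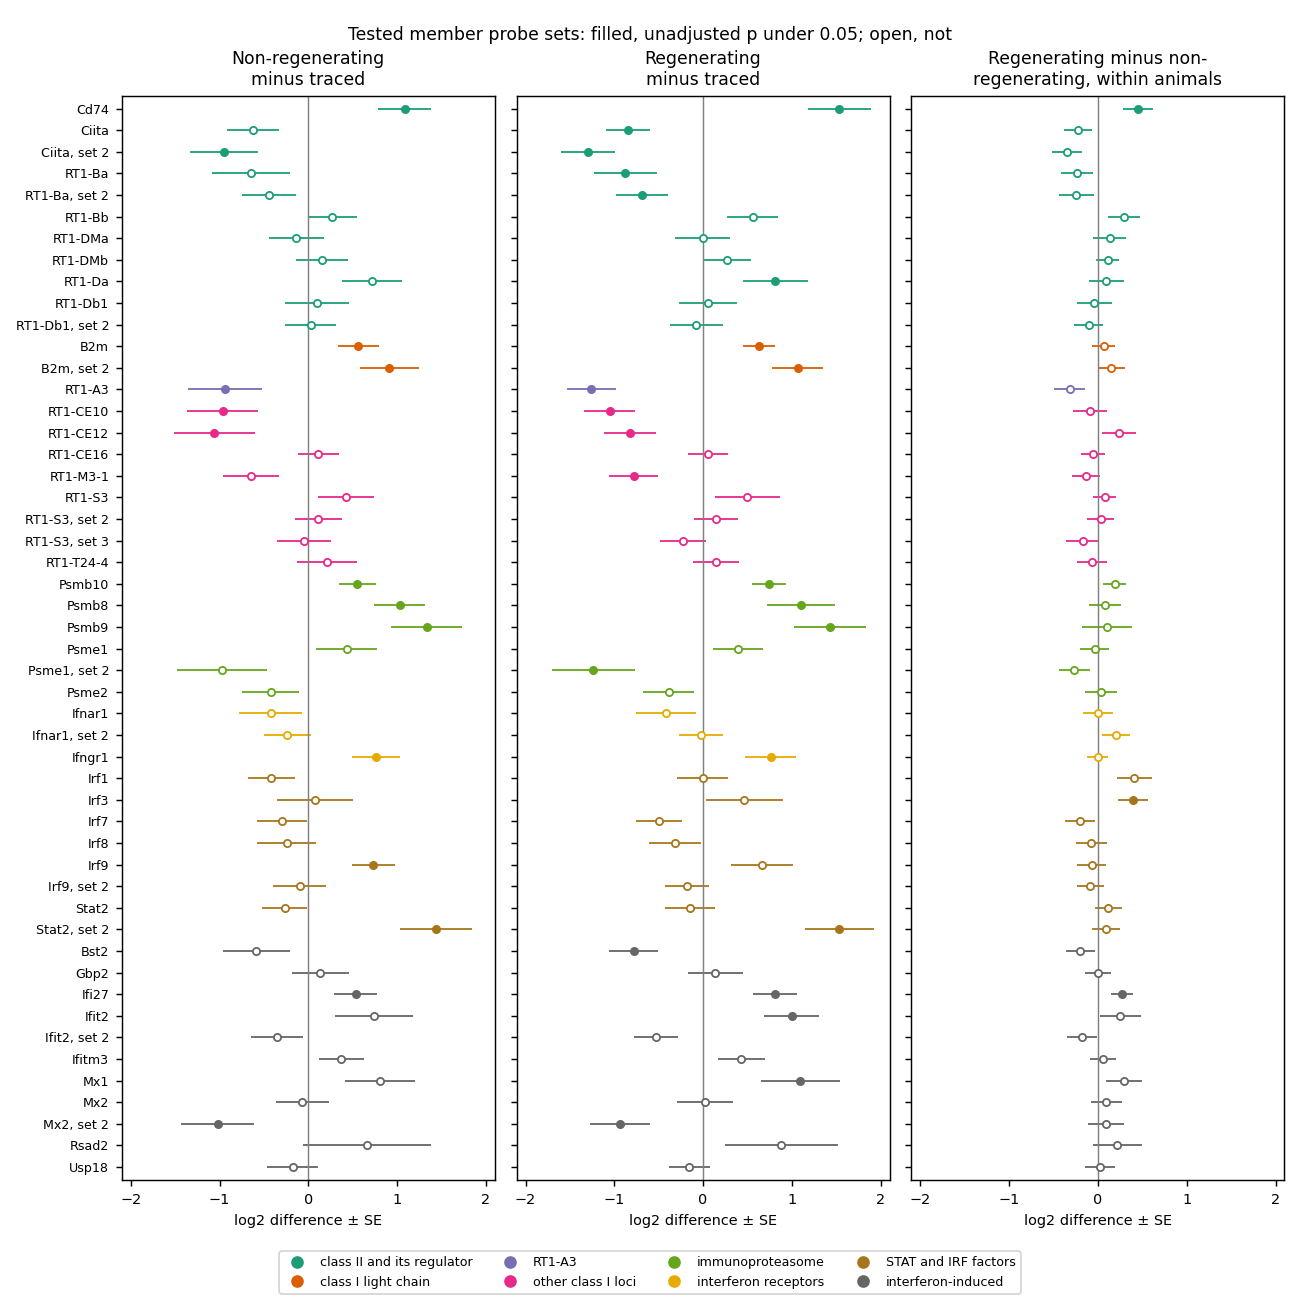
Log2 difference and standard error (horizontal axes) of each of the 50 tested member probe sets (vertical axis, by role; "set 2" and "set 3" are dimmer probe sets of the same gene) in the 3 comparisons. Filled points have an unadjusted p under 0.05; the 2 panels against traced neurons spread from -1.29 to 1.53, while the panel within animals stays between -0.34 and 0.45.

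In the class II pathway, the invariant chain was higher after axotomy while the class II transactivator was lower. Cd74 read 32.6, 52.0 and 47.8 in the traced samples MM15, MM18 and MM19. It read 69.4 to 176.3 with a median of 111.5 in non-regenerating neurons, and 70.6 to 328.2 with a median of 149.1 in regenerating neurons. Every axotomised sample lay above every traced sample. The log2 difference from traced neurons was 1.08 (SE 0.30, limma adjusted p = 0.472, exact permutation p = 0.00833, the smallest it can give) in non-regenerating and 1.53 (SE 0.36, adjusted p = 0.0682) in regenerating neurons. Without the 2 arrays that stood apart these differences were 1.0 and 1.39, and within the MM animals 1.14 and 1.65. With an offset of 64 in place of 16 before taking log2, the first was 0.70.

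Ciita, the factor that switches on class II genes, was read by 2 tested probe sets that moved the same way. The brighter read 132.8, 84.0 and 87.9 in traced MM15, MM18 and MM19, 40.9 to 88.4 with a median of 65.5 in non-regenerating neurons, and 35.2 to 66.0 with a median of 46.1 in regenerating neurons. All regenerating samples lay below all traced samples, and the non-regenerating range reached into the traced one. The log2 differences from traced were -0.62 (SE 0.29) and -0.84 (SE 0.25), and -0.26 and -0.45 with arrays centred on their medians. The dimmer probe set read 157.2, 63.4 and 78.3 in the traced samples against 19.3 to 98.8 and 18.1 to 45.9, with log2 differences of -0.95 (SE 0.38) and -1.29 (SE 0.31), or -0.59 and -0.90 with centred arrays. The limma adjusted p for regenerating neurons was 0.0771 and 0.0682 for the 2 probe sets. For non-regenerating neurons the exact permutation p was 0.0333 at the brighter and 0.0583 at the dimmer probe set. For regenerating neurons it was 0.00833 at both.

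The class II chains did not share one direction. RT1-Da, the alpha chain of the rat counterpart of HLA-DR, read 612.2, 262.0 and 224.8 in traced MM15, MM18 and MM19. It read 344.9 to 998.5 with a median of 528.7 in non-regenerating and 417.7 to 1073.6 with a median of 493.8 in regenerating neurons, with log2 differences of 0.72 (SE 0.34) and 0.81 (SE 0.37). The traced sample MM15 lay inside the range of the axotomised samples. The differences were 1.08 and 1.24 without the 2 arrays that stood apart, and the second was 0.50 within the MM animals. RT1-Ba, the alpha chain of the HLA-DQ counterpart, was lower at both tested probe sets, by -0.64 (SE 0.44) and -0.45 (SE 0.31) in non-regenerating and -0.88 (SE 0.36) and -0.69 (SE 0.29) in regenerating neurons. Traced MM15 was its highest traced sample, at 244.0 against 99.2 or less and 95.9 against 52.4 or less. Without the 2 arrays that stood apart the differences were -0.27 and -0.29, and -0.38 and -0.43. Its partner RT1-Bb differed by 0.27 and 0.56. RT1-Db1 and the peptide exchange chains RT1-DMa and RT1-DMb lay between -0.14 and 0.27 in both comparisons.

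In the class I pathway the light chain was higher after axotomy and several heavy chain probe sets were lower. B2m, the light chain shared by all class I molecules, read 1303.2, 1617.2 and 1696.3 in traced MM15, MM18 and MM19 at the probe set with the higher mean log2 signal. Non-regenerating neurons read 1700.3 to 2876.3 with a median of 2513.0, and regenerating neurons 2162.6 to 2837.8 with a median of 2271.4. No axotomised sample overlapped the traced samples, although the lowest non-regenerating value lay close to the highest traced one. The log2 differences were 0.56 (SE 0.23, limma adjusted p = 0.472) and 0.63 (SE 0.18, limma adjusted p = 0.0759), and 0.92 and 1.02 with centred arrays. The other B2m probe set differed by 0.91 (SE 0.33) and 1.07 (SE 0.29). It also separated the animals by name, with 3300.0 to 4237.4 on the 4 MOON arrays and 1241.2 to 2760.3 on the 10 axotomised MM arrays, and within MM animals its differences were 0.63 and 0.83.

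RT1-A3 was the only tested probe set of the 2 classical heavy chain members. It read 156.6, 111.6 and 109.1 in traced MM15, MM18 and MM19, 32.1 to 208.7 with a median of 41.7 in non-regenerating neurons, and 29.9 to 87.4 with a median of 39.1 in regenerating neurons. All regenerating samples lay below the traced samples, as did 6 of 7 non-regenerating ones, and the exception was MM17 with the 208.7. These were log2 differences of -0.94 (SE 0.42, limma adjusted p = 0.472) and -1.26 (SE 0.28, limma adjusted p = 0.0682), and -0.58 and -0.87 with centred arrays. RT1-A, the other classical member, was too dim to test, at 5.5 to 30.0, 4.2 to 28.8 and 32.1 to 43.3 in regenerating, non-regenerating and traced neurons.

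Of the 10 other class I loci, 6 had a tested probe set. RT1-CE10 read 169.2, 91.5 and 86.4 in traced MM15, MM18 and MM19, 19.0 to 108.0 with a median of 40.6 in non-regenerating and 24.4 to 74.5 with a median of 45.8 in regenerating neurons. Regenerating samples lay below all traced samples, with log2 differences of -0.96 (SE 0.40) for non-regenerating and -1.05 (SE 0.29) for regenerating neurons. With centred arrays these were -0.60 and -0.66. RT1-CE12 differed by -1.06 (SE 0.45) and -0.82 (SE 0.29), and RT1-M3-1, which presents formylated peptides, by -0.64 (SE 0.32) and -0.78 (SE 0.28). Centring brought these to -0.70 and -0.43 for RT1-CE12 and to -0.28 and -0.39 for RT1-M3-1, and the first difference of each was -0.64 and -0.41 within the MM animals. RT1-CE16, RT1-T24-4 and the 3 tested probe sets of RT1-S3 lay between -0.23 and 0.50. The class I genes are near-identical copies, so a probe set can read more than the gene it is named for, and the probe sets whose names carry an x are marked by the manufacturer's suffix as sharing probes. Peptide loading could not be tested at all: the 4 probe sets of Tap1, Tap2 and Tapbp were dim, and the brighter one of Tap1, a chain of the peptide pump, read 3.1 to 28.5, 1.3 to 42.8 and 18.0 to 44.7 in regenerating, non-regenerating and traced neurons.

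All 3 interferon-inducible catalytic subunits of the proteasome were higher after axotomy. Psmb8 read 65.2, 32.7 and 51.1 in traced MM15, MM18 and MM19, 85.3 to 162.9 with a median of 117.7 in non-regenerating and 51.7 to 271.1 with a median of 114.8 in regenerating neurons. Non-regenerating samples all lay above the traced ones, while the regenerating MOON265 sample, at 51.7, fell among them. In log2 the differences came to 1.03 (SE 0.28, limma adjusted p = 0.472) and 1.10 (SE 0.38, limma adjusted p = 0.107).

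Psmb10 read 341.5, 375.9 and 319.0 in traced MM15, MM18 and MM19, 406.9 to 635.9 with a median of 505.7 in non-regenerating and 532.7 to 694.5 with a median of 549.3 in regenerating neurons. No axotomised sample overlapped the traced samples. The log2 differences were 0.55 (SE 0.21, limma adjusted p = 0.472) and 0.74 (SE 0.19, limma adjusted p = 0.0684), and 0.91 and 1.13 with centred arrays.

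Psmb9 was near the floor of the array in traced neurons, at 13.6, 5.2 and 4.0 in MM15, MM18 and MM19, below the offset of 16 added before taking log2. Non-regenerating neurons read 5.9 to 77.5 with a median of 54.2 and regenerating neurons 11.4 to 111.3 with a median of 52.7. In each axotomised group 6 of 7 samples lay above all traced samples. The log2 differences of 1.33 (SE 0.40) and 1.43 (SE 0.41) depend on the offset and were 0.61 and 0.68 with an offset of 64. Of the constitutive subunits that these 3 replace, Psmb5 differed by 0.24 (SE 0.27) and 0.34 (SE 0.30) and Psmb7 by 0.42 (SE 0.64) and 0.93 (SE 0.44), and Psmb6 was not analysed here.

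The proteasome activator PA28, made of Psme1 and Psme2, gave no single direction. The brighter Psme1 probe set differed from traced neurons by 0.43 (SE 0.34) and 0.39 (SE 0.28) and the dimmer one by -0.97 (SE 0.51) and -1.24 (SE 0.47) in non-regenerating and regenerating neurons. The 2 probe sets of this gene therefore disagreed. The differences at the brighter one rested on traced MM15, at 234.6, and non-regenerating MM17, at 1131.2, and were -0.07 and 0.09 without these 2 arrays. Both read lower on all 4 MOON arrays than on all 10 axotomised MM arrays. Psme2 differed by -0.42 (SE 0.32) and -0.39 (SE 0.28), and the second value became 0.00 when arrays were centred on their medians.

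**Figure D2:**
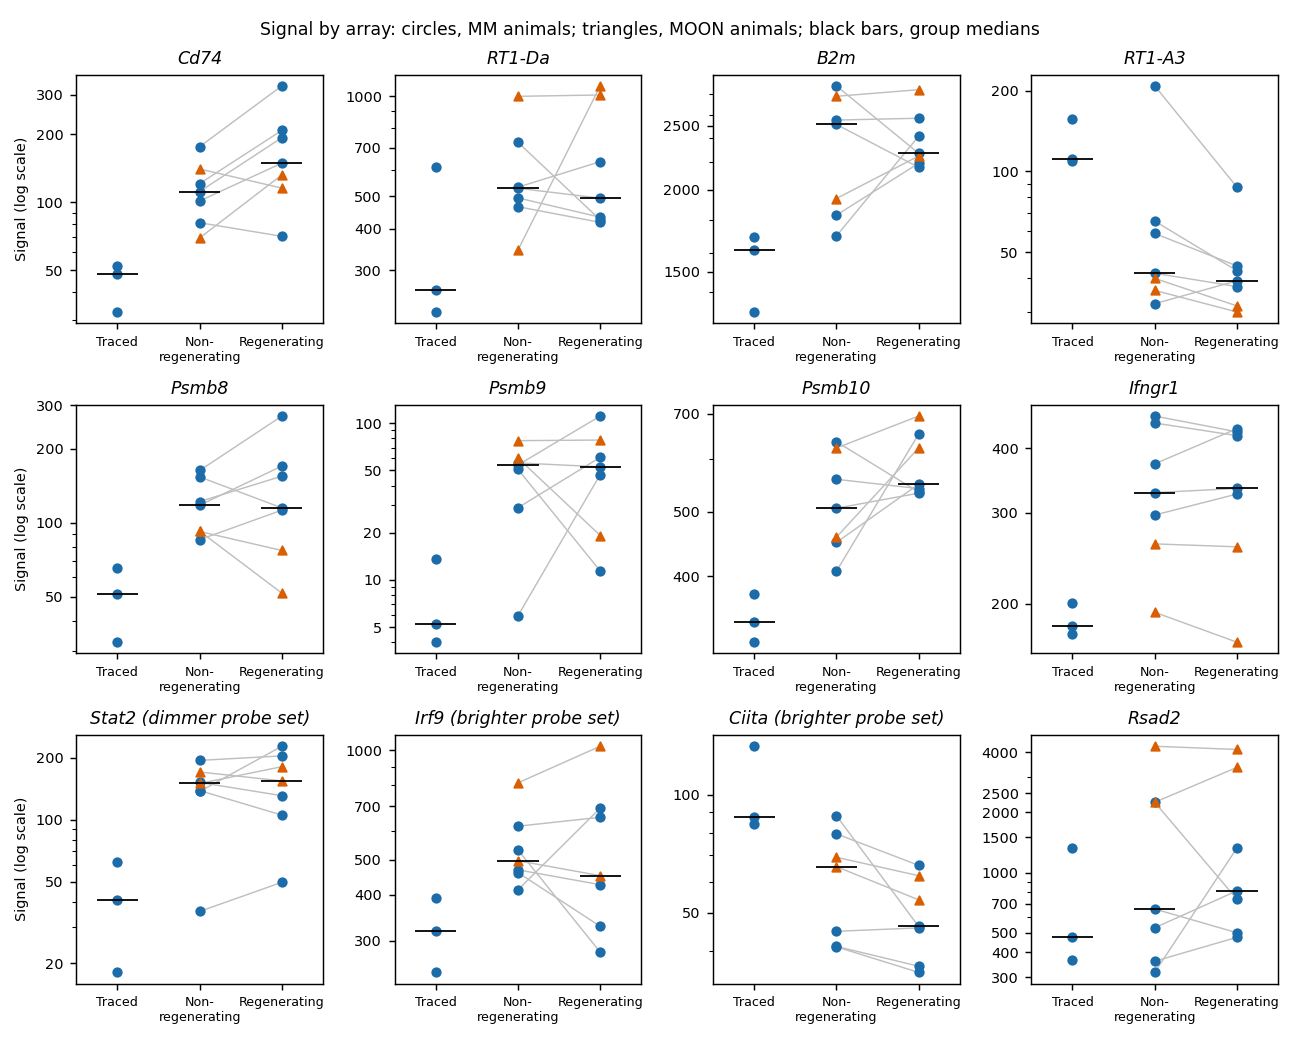
Signal of 12 members (vertical axes, log scale, deposited units) in the 3 traced, 7 non-regenerating and 7 regenerating samples; grey lines join the samples of 1 animal and black bars are medians. Cd74, B2m and Psmb10 lie above the traced samples in every axotomised sample, and RT1-A3 and Ciita lie below them in every regenerating sample.

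Of the receptors, the interferon gamma receptor read higher after axotomy, while the groups overlapped for the type I receptor. Ifngr1, the ligand-binding chain for interferon gamma, read 174.7, 200.7 and 181.2 in traced MM15, MM18 and MM19, 192.7 to 461.6 with a median of 328.3 in non-regenerating and 168.7 to 436.4 with a median of 334.4 in regenerating neurons. The 10 axotomised MM samples, at 297.1 to 461.6, lay above all traced samples, and the 4 MOON samples, at 168.7 to 261.3, reached into their range. These were log2 differences of 0.76 (SE 0.27, limma adjusted p = 0.472) and 0.76 (SE 0.29, limma adjusted p = 0.127), and 0.96 and 1.0 within the MM animals. Ifnar1, a chain of the type I receptor, read 140.3, 112.7 and 97.2 in the same traced samples at its brightest probe set, 41.7 to 144.6 with a median of 102.0 in non-regenerating and 41.3 to 156.5 with a median of 82.1 in regenerating neurons. The groups overlapped, with differences of -0.42 (SE 0.35) and -0.42 (SE 0.34). These were -0.13 and -0.16 within the MM animals and -0.06 and -0.03 with centred arrays.

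Of the factors, 1 probe set each of Stat2 and Irf9 was higher after axotomy while the other probe set of the same gene was not. Stat2, a Stat protein of type I interferon signalling, read 18.1, 40.8 and 62.5 in traced MM15, MM18 and MM19 at its dimmer probe set, 35.8 to 194.0 with a median of 149.9 in non-regenerating and 49.6 to 227.3 with a median of 154.2 in regenerating neurons. In each axotomised group 6 of 7 samples lay above all traced ones, and MM17 was the exception in both. In log2 the differences came to 1.44 (SE 0.41, limma adjusted p = 0.472) and 1.53 (SE 0.39, limma adjusted p = 0.0684). The brighter Stat2 probe set read 844.3, 484.1 and 494.6 in the traced samples, 339.6 to 658.3 and 359.7 to 770.2 in the others, and differed by -0.27 (SE 0.25) and -0.15 (SE 0.28). That small difference changed sign when arrays were centred.

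Irf9, the DNA-binding partner of Stat2, read 391.3, 245.3 and 317.9 in traced MM15, MM18 and MM19 at its brighter probe set, 413.4 to 812.7 with a median of 496.7 in non-regenerating and 278.7 to 1024.1 with a median of 451.9 in regenerating neurons. Non-regenerating samples did not overlap the traced ones, and regenerating samples did. The log2 differences were 0.73 (SE 0.24) and 0.66 (SE 0.35), against -0.10 (SE 0.30) and -0.18 (SE 0.25) at the dimmer probe set. Irf1, an early target of interferon gamma, read 86.3, 119.6 and 71.6 in the traced samples, 48.3 to 78.8 with a median of 65.6 in non-regenerating and 43.2 to 130.8 with a median of 95.1 in regenerating neurons. All 3 groups overlapped, with differences from traced of -0.42 (SE 0.26) and -0.01 (SE 0.29). Irf3, Irf7 and Irf8 differed by -0.50 to 0.46 in the 2 comparisons.

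Interferon-induced genes were split, and 9 of the 13 had a tested probe set. Ifi27, a mitochondrial interferon-induced protein, read 294.3, 529.1 and 424.0 in traced MM15, MM18 and MM19, 398.0 to 735.1 with a median of 595.6 in non-regenerating and 537.9 to 1009.4 with a median of 708.3 in regenerating neurons. Regenerating samples lay above all traced samples and non-regenerating samples overlapped them. These were log2 differences of 0.54 (SE 0.24, limma adjusted p = 0.472) and 0.81 (SE 0.25, limma adjusted p = 0.0843), and the first was 0.90 with centred arrays.

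Ifit2, which binds viral RNA, read 141.3, 196.4 and 269.5 in traced MM15, MM18 and MM19 at its brighter probe set, 96.3 to 677.0 with a median of 389.2 in non-regenerating and 232.7 to 635.9 with a median of 419.9 in regenerating neurons, so the groups overlapped. Its differences were 0.74 (SE 0.44) and 1.0 (SE 0.31), and -0.35 (SE 0.30) and -0.53 (SE 0.25) at the dimmer probe set. Within the MM animals the first was 0.44, and centring brought the dimmer set to 0.01 and -0.14. Mx1 and Mx2 are antiviral GTPases. Mx1 differed by 0.80 (SE 0.39) and 1.10 (SE 0.45), with 90.5 to 166.7 in traced and 99.5 to 669.3 in axotomised neurons. The 4 MOON arrays read 332.8 to 669.3, and within the MM animals the differences were 0.45 and 0.80. Without the 2 arrays that stood apart they were 1.015 and 1.30. Mx2 differed by -0.07 and 0.03 at its brighter probe set and by -1.02 (SE 0.41) and -0.93 (SE 0.34) at its dimmer one, where the traced samples MM15, MM18 and MM19 read 151.0, 59.5 and 79.5. With centred arrays the dimmer set differed by -0.66 and -0.54.

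Bst2, or tetherin, which holds budding virus at the cell surface, read 147.7, 87.2 and 93.4 in traced MM15, MM18 and MM19, 33.4 to 165.6 with a median of 60.5 in non-regenerating and 33.7 to 89.9 with a median of 55.9 in regenerating neurons. The ranges overlapped, and the differences were -0.58 (SE 0.37) and -0.78 (SE 0.28). They were -0.22 and -0.39 with centred arrays, and the first was -0.35 within the MM animals. Ifitm3, which blocks virus entry, read 444.3, 309.0 and 466.9 in the same traced samples, 375.8 to 829.8 with a median of 478.6 and 373.2 to 779.9 with a median of 569.2. Its ranges overlapped too, with differences of 0.37 (SE 0.26) and 0.43 (SE 0.27). Gbp2 and Usp18 lay between -0.18 and 0.14. Isg15, the ubiquitin-like interferon product, was too dim to test, at 6.1 to 16.3 in traced, 14.9 to 54.1 in non-regenerating and 14.5 to 98.6 in regenerating neurons, and Isg20, Ifit3 and Oas1a were also too dim.

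Rsad2, or viperin, an antiviral enzyme, differed by the animals' names. It read 1331.9, 366.4 and 478.7 in traced MM15, MM18 and MM19, and 317.6 to 4284.6 and 475.6 to 4128.2 in non-regenerating and regenerating neurons. The 4 MOON arrays read 2249.3 to 4284.6 and the 10 axotomised MM arrays 317.6 to 2248.6, so the ranges met but did not overlap. The differences from traced of 0.66 (SE 0.72) and 0.88 (SE 0.63) came to 0.01 and 0.21 within the MM animals. Without the 2 arrays that stood apart they came to 1.35 and 1.43. Of the tested members, 2 probe sets (4%, background 5.34%) lay higher on all MOON than on all axotomised MM arrays, namely Rsad2 and the second B2m probe set. Another 5 (10%, background 14.6%) lay lower, namely both of Psme1 and 1 each of Bst2, Ifnar1 and Ifngr1. No traced sample came from a MOON animal.

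Between regenerating and non-regenerating neurons of the same animal, Cd74, Irf3 and Ifi27 had the clearest differences and none passed the adjusted threshold. At an unadjusted p under 0.05, 3 members were higher in regenerating neurons (6%, background 4.26%) and 0 were lower (background 2.81%). Without the pairing by animal, 0 members had an unadjusted p under 0.05. The median difference was 0.03, against -0.00 over all tested probe sets. Cd74 was higher by 0.45 (SE 0.17, limma adjusted p = 0.678) and in 5 of 7 animals, with within-animal differences from -0.25 to 0.84. Its exact sign-flip p was 0.0625. Irf3, a factor that induces interferon beta, was higher by 0.39 (SE 0.17, limma adjusted p = 0.683) and in 6 of 7 animals. Its mean difference was 0.55 in MM and -0.00 in MOON animals. It read 71.3 to 289.3 with a median of 111.3 in non-regenerating and 70.6 to 322.4 with a median of 220.0 in regenerating neurons. Ifi27 was higher by 0.27 (SE 0.12, limma adjusted p = 0.695) and in 5 of 7 animals, and both exceptions were the MOON animals.

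The count of members that went the same way in all animals was near the background. Of the 50, 1 did so: the dimmer Ciita probe set was lower in the regenerating neurons of 7 of 7 animals (2% of members, background 0.966%), by -0.34 (SE 0.17, limma adjusted p = 0.697). Its exact sign-flip p of 0.0156, the smallest 7 pairs can give, follows from the shared direction by which it was picked out. That p is therefore no separate evidence. In the MOON animals this probe set lay near the floor, at 18.1 to 20.6, with a mean difference of -0.07, against -0.46 in MM animals. The brighter probe set was lower in 6 of 7, by -0.22 (SE 0.16). No member was higher in all 7 animals (background 1.12%). Irf1 was higher by 0.41 (SE 0.20) and in 6 of 7 animals, with a mean of 0.56 in MM and 0.03 in MOON animals. RT1-A3 was lower by -0.32 (SE 0.18) and in 6 of 7. B2m, Psmb8, Psmb9 and Ifngr1, which were higher than in traced neurons, differed within animals by 0.07 (SE 0.13), 0.08 (SE 0.18), 0.10 (SE 0.29) and 0.00 (SE 0.12). Psmb8 and Psmb9 went opposite ways by animal name, with means of 0.29 and 0.36 in MM and -0.45 and -0.55 in MOON animals.

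**Figure D3:**
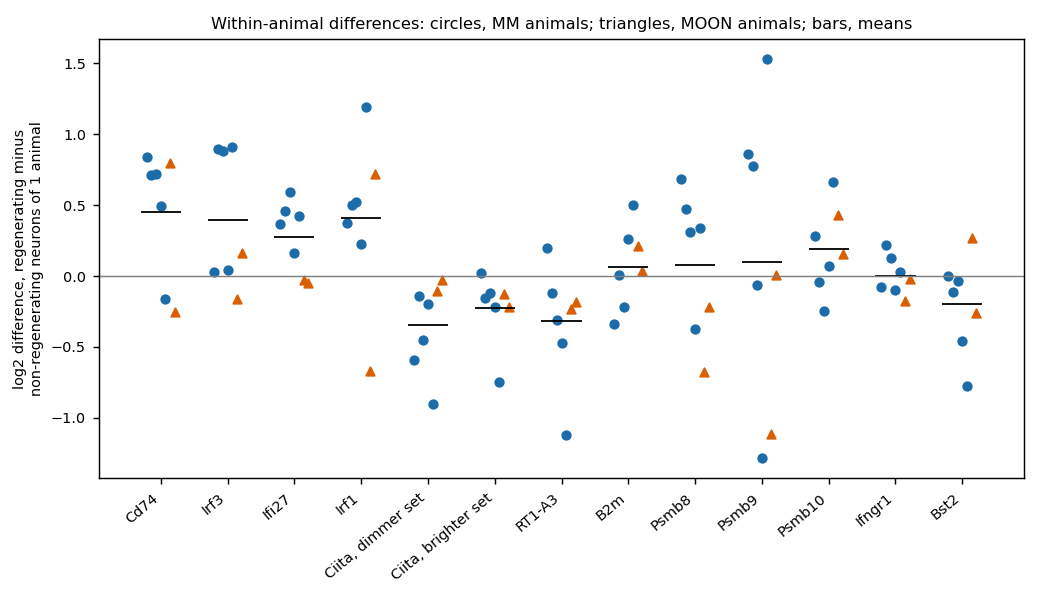
Log2 difference between regenerating and non-regenerating neurons of 1 animal (vertical axis) for 13 probe sets of 12 members (horizontal axis), 7 animals each, with bars at the mean. The dimmer Ciita probe set lies below 0 in all 7 animals, Cd74 above 0 in 5, and Psmb9 spreads from -1.29 to 1.53.

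The other genes of these pathways, chosen as lists and read at their brightest probe set, gave 1 call. Of 15 tested genes of the class I pathway and 17 of the class II pathway, 0 passed the adjusted threshold in any comparison. At an unadjusted p under 0.05, class II pathway genes were 3 higher and 1 lower in non-regenerating and 6 higher and 2 lower in regenerating against traced neurons. The backgrounds given above for these 4 counts, over all probe sets, were 2.68%, 7.61%, 5.98% and 17.6%. The higher ones included Marchf1, the ligase that removes class II from the surface, at 0.92 (SE 0.32) and 1.20 (SE 0.32), Ctss, the protease that trims the invariant chain, at 0.77 (SE 0.25) and 0.71 (SE 0.25), and its inhibitor Cst3 at 0.80 (SE 0.31) and 0.89 (SE 0.26). Lower in regenerating neurons were Cd86, a costimulatory ligand, and Cd4, at -1.06 (SE 0.33) and -1.03 (SE 0.26) in regenerating neurons. In the class I pathway 1 of 15 genes was higher at that threshold in each comparison with traced neurons (backgrounds 2.68% and 5.98%). It was the proteasome activator Psme4, at 0.80 (SE 0.26) and 0.76 (SE 0.27). Lower in regenerating neurons was 1 of 15 (background 17.6%), Sec61a1 of the translocon, at -0.98 (SE 0.32). Within animals 1 of 15 was higher (background 4.26%), Psmb7, at 0.51 (SE 0.22). A count of 1 among 15 is too small to set apart from these shares.

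Of 18 tested genes of interferon signalling, 0 passed the adjusted threshold, and 4 were higher in non-regenerating and 5 higher and 1 lower in regenerating against traced neurons at an unadjusted p under 0.05 (backgrounds 2.68%, 5.98% and 17.6%). Nmi, an interferon-induced partner of Stat proteins, differed by 1.40 (SE 0.43) and 1.65 (SE 0.39, limma adjusted p = 0.0682), Sting1, the adaptor for cytosolic DNA, by 0.85 (SE 0.38) and 1.03 (SE 0.38), and the receptor kinase Tyk2 by 0.36 (SE 0.46) and 0.78 (SE 0.28). Of 34 other interferon-induced genes 1 passed: Plac8, a small cysteine-rich protein of leukocytes, rose in regenerating against traced neurons by 1.70 (SE 0.29, limma adjusted p = 0.0324). It read 65.3, 38.0 and 38.2 in traced MM15, MM18 and MM19, 114.6 to 358.1 with a median of 168.5 in non-regenerating and 133.6 to 336.0 with a median of 177.0 in regenerating neurons. The axotomised samples all lay above the traced ones, and the difference for non-regenerating neurons was 1.74 (SE 0.32, limma adjusted p = 0.0986). Over the whole array, regenerating against traced neurons gave 40 calls, but 1 without traced MM15 and 1 with the Gapdh ratio as a covariate. Whether Plac8 still passed there is not given here. At an unadjusted p under 0.05 this list had 1 higher and 0 lower in non-regenerating, and 4 higher and 3 lower in regenerating against traced neurons. Against the same backgrounds these counts of 34 were near or under the share over all probe sets, apart from the 4.

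Microglia markers were also higher after axotomy. The summed signal of 24 microglia and macrophage markers was 7489 to 8734 in traced, 12430 to 20770 in non-regenerating and 13080 to 23220 in regenerating neurons, so no axotomised sample overlapped the traced ones. Of 20 such markers tested, 17 were higher and 3 lower in non-regenerating neurons with a median of 0.81, and 18 higher and 2 lower in regenerating neurons with a median of 0.65. Over all tested probe sets 38.8% and 40.8% were higher, with a median of -0.12 in each comparison. The lowest marker differed by -0.23 and -0.35. The markers that passed the adjusted threshold, 2 and 5 of the 20, were all higher. Fcgr2b, an inhibitory antibody receptor, and Lgals3, or galectin-3, rose in both comparisons (limma adjusted p = 0.0336 for each in non-regenerating, and 0.0126 and 0.0199 in regenerating neurons), by 2.34 (SE 0.34) and 1.69 (SE 0.25) and by 2.65 (SE 0.36) and 2.08 (SE 0.30). C1qa, Laptm5 and Lyz2 rose against traced neurons in the regenerating group, by 1.52 (SE 0.26), 1.57 (SE 0.25) and 1.46 (SE 0.26). Without traced MM15, 1 probe set of the whole array passed in that comparison. At most 1 of the calls of Fcgr2b, Lgals3, C1qa, Laptm5, Lyz2, Gfap and Plac8 in regenerating neurons can therefore have held there. Itgam, a defining integrin of these cells, was near the floor on every array, at 1.8 to 7.3. Ctss stands on this list as well as on that of the class II pathway. Between regenerating and non-regenerating neurons of the same animal, 11 of the 20 markers were higher and 9 lower, with a median of 0.02. There 0 passed the adjusted threshold. At an unadjusted p under 0.05, 4 of the 20 were higher and 1 lower (backgrounds 4.26% and 2.81%). In all 7 animals 1 was higher (background 1.12%) and 0 lower (background 0.966%).

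The 12 astrocyte markers summed to 17020 to 23480 in traced, 16960 to 31800 in non-regenerating and 17910 to 29580 in regenerating neurons. Against traced neurons 11 were higher and 1 lower in non-regenerating, and 9 higher and 3 lower in regenerating neurons, with medians of 0.32 and 0.41. At an unadjusted p under 0.05, 5 and 3 were higher (backgrounds 2.68% and 5.98%) and 0 lower. Gfap rose in regenerating against traced neurons by 1.33 (SE 0.22, limma adjusted p = 0.026). The sums of the 12 neuronal markers overlapped between the groups, while 1 of the 12 lay below all traced samples in regenerating neurons (background 9.36%). The sums of 12 T and NK cell markers overlapped as well, with 1007 to 1291 in traced and 800.9 to 1716 in axotomised neurons. The 4 dendritic cell markers read 101.7 to 127.4 in traced, 77.6 to 132.4 in non-regenerating and 57.8 to 102.3 in regenerating neurons, and the 4 B and plasma cell markers 235.7 to 361.5, 52.5 to 379.2 and 72.7 to 217.3. The 4 MOON arrays summed to 1344 to 1716 for the T and NK cell list. Of the T cell receptor complex, Cd3d read 1.5 to 5.5 over all arrays and Cd3g 13.5 to 156.0, while Cd3e read up to 803.1 on the MOON arrays, all 4 above the highest of the others at 233.5. Of B cell genes, Cd79b read 1.2 to 3.5 and Ms4a1 up to 194.5, with the traced samples at 141.9 to 194.5. The sums of the 9 endothelial and of the 10 oligodendrocyte markers overlapped between all groups. Single endothelial markers did not all overlap: 1 lay below the traced samples in non-regenerating neurons (background 1.47%). In regenerating neurons 1 lay above and 1 below them (backgrounds 2.35% and 9.36%). The part of microglia, astrocytes and lymphocytes in the differences of Cd74, B2m, the immunoproteasome and the other members was not tested, and in pooled captures fewer cells of a type and less RNA per cell cannot be told apart.

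**Figure D4:**
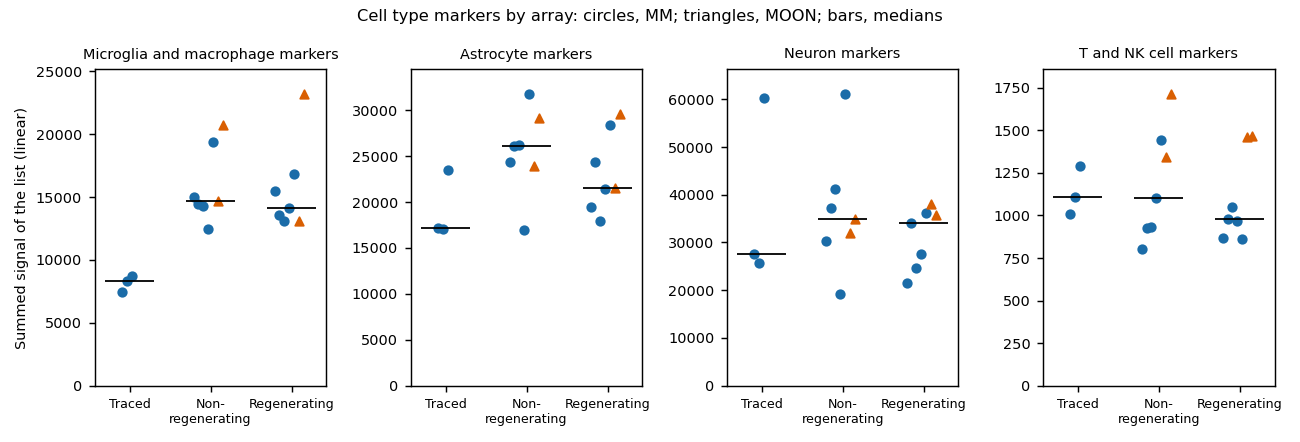
Summed linear signal (vertical axes, deposited units, from 0) of 24 microglia and macrophage, 12 astrocyte, 12 neuron and 12 T and NK cell markers on each array, by group, with bars at the median. Microglia and macrophage sums of all axotomised samples, from 12430, lie above those of the traced samples, up to 8734, and the sums of the other 3 lists overlap.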

How the data were processed

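The authors deposited 1 signal intensity per probe set and array on a linear scale, made with GCOS, the Affymetrix operating software, per the submitters' processing notes; its version and settings are not given in the sources used here. The arrays were used as deposited, and 0 pairs were identical. Signals were taken to log2 after adding 16. Left out were 57 control probe sets and 12417 dim ones, whose mean log2 signal was under the 40th percentile. Differences were fitted with limma 3.58.1 in R 4.3.3 (lmFit, eBayes with trend) over the remaining 18625 probe sets, with Benjamini-Hochberg adjustment and a threshold of 0.05. Regenerating and non-regenerating samples were paired by the animal named in the labels. Deviations from group means correlated at 0.345 to 0.709 between the samples of 1 animal. P-values of the paired comparison rest on how the differences within animals vary from animal to animal. Those against traced neurons rest on the spread between samples of different animals. The number of arrays limits the precision.

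A single named member was also tested with a two-sided exact permutation test, whose smallest p is 0.0156 for 7 pairs and 0.00833 for 7 against 3. Signals of different probe sets were not compared. The members and all gene lists were chosen with earlier results of these data known. Values per sample were given, at a gene's brightest probe set, for up to 10 members per comparison with the smallest unadjusted p under 0.05 and for 12 representatives of the roles. RT1-Da, Mx1, Isg15, Rsad2, Sec61a1, Cd3e and Ms4a1 were named after their values were seen. Entrez numbers matched 49 of 50 member genes to RefSeq and changed 0 symbols. In simulated data 200 of 18625 probe sets were changed. A fold of 2 was recovered for 15% in the paired comparison. Against traced neurons it was recovered for 0% in non-regenerating and 15% in regenerating neurons. A fold of 4 was recovered for 97.5%, 81% and 83.5% in that order. The simulated noise was drawn separately for each array, so it lacked the correlation between samples of the same animal. The paired shares of 15% and 97.5% therefore do not show what the real paired fit could recover.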

Additional observations from a re-analysis of the deposited data

Results flagged for a closer look

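A sample was singled out where its gap to the nearest other sample of its group took more than 0.568 of the group's range (Dixon's limit for 7 samples), which chance gives in about 5% of groups. Of 48 groups checked, 5 met this. The RT1-A3 signal was 208.7 in non-regenerating MM17, where the other 6 samples read 32.1 to 65.3, and 87.4 in regenerating MM17, where the others read 29.9 to 44.4. Non-regenerating MM17 also read 120.9 for the dimmer Mx2 probe set, against 18.8 to 40.7 in the others, and 35.8 for the dimmer Stat2 probe set, against 137.0 to 194.0. Irf1 was 43.2 in regenerating MOON265, against 87.5 to 130.8 in the others. Non-regenerating MM17 was 1 of the 2 arrays that stood apart over all probe sets.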

How the results depend on the processing

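Between regenerating and non-regenerating neurons 0 members passed in any of 20 settings, and their median difference stayed between -0.04 and 0.09. Without the replicate block, that is unpaired, 0 members passed, the median was 0.03 and 0 members had an unadjusted p under 0.05, against 3 with it. Against traced neurons the count of 0 did change. For non-regenerating neurons it was 16 with array weights (13.1% of all probe sets), and 0 to 2 when 1 sample was left out. The 2 were Psmb9 and the dimmer Stat2 probe set, without non-regenerating MM17 (0.199%). For regenerating neurons it was 3 after quantile normalization (1.12% of all probe sets), 6 with arrays centred on their medians (1.88%), 7 with an offset of 64 (4.68%), 20 with array weights (16.8%) and 3 where the name prefix entered the model (1.08%). It was 0 to 7 when 1 sample was left out, with the 7 without regenerating MM17 (8.08%). The members' median against traced neurons was 0.28 and 0.32 after quantile normalization, 0.41 and 0.43 with centred arrays, 0.43 and 0.48 where only probe sets above the 70th percentile were kept, for non-regenerating and regenerating neurons, and 0.24 for regenerating neurons with 3′ bias as a covariate. Left-out samples moved it from -0.07 to 0.07 and from -0.08 to 0.10. The cause of these changes was not tested. Without the 2 arrays that stood apart, 11 members were higher and 4 lower in non-regenerating and 13 higher and 5 lower in regenerating neurons at an unadjusted p under 0.05 (backgrounds 2.92%, 8.99%, 2.63% and 9.16%). Within MM animals they were 10 higher and 0 lower, and 12 higher and 10 lower (backgrounds 2.72%, 2.61%, 11% and 16.7%). The 26 dim member probe sets, with all of Tap1, Tap2 and Tapbp, lay too close to the floor for a comparison.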
